A study of Mus musculus with 71 samples.

Results

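The presynaptic active zone is the patch of a nerve terminal where synaptic vesicles dock and release transmitter. Its 10 genes described here were taken by name from the deposited tables: Unc13a, Unc13b and Unc13c, Rims1, Rims2 and Rims3, Bsn and Pclo, and Erc1 and Erc2. They are 10 of 37681 genes listed, and each is present once in every table. The list was chosen by function, with the cocaine against saline values of these tables already known. RNA-seq was carried out on 71 libraries from micro-punches of the nucleus accumbens (NAc), ventral tegmental area (VTA) and prefrontal cortex (PFC) of adult wild type C57BL/6 mice (C57BL/6J in the study's methods). The methods of the study give male and female mice that were 8 weeks old, trained first on food pellets and fitted with a jugular catheter. They then worked for infusions of cocaine (0.7 mg/kg/infusion) or of saline in 21 daily sessions, and tissue was taken after 1 or 28 days of abstinence. Each of the 12 groups of region, time point and treatment had 6 libraries, except saline VTA at 28 days with 5. Nothing in the labels says that each library came from its own mouse, so the p-values measure the spread between these libraries.

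Active zone proteins are built in layers. The Unc13 genes encode the Munc13 proteins, which prime docked vesicles by opening syntaxin for SNARE assembly. Rims1 and Rims2 encode the RIM scaffolds, which bind Rab3 on the vesicle, Munc13 and calcium channels, while Rims3 encodes a short form that keeps only the C-terminal part. Bsn and Pclo encode Bassoon and Piccolo, very large scaffolds that organize the vesicle cluster, and Erc1 and Erc2 encode the ELKS proteins, which bind RIM. In the NAc, VTA and PFC these proteins act in terminals of local neurons and also in terminals of neurons whose cell bodies, and most of whose mRNA, lie elsewhere.

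The genes carry the identifiers ENSMUSG00000034799 for Unc13a (chromosome 8 in mm9), ENSMUSG00000028456 for Unc13b (chromosome 4), ENSMUSG00000062151 for Unc13c (chromosome 9), ENSMUSG00000041670 for Rims1 (chromosome 1), ENSMUSG00000037386 for Rims2 (chromosome 15), ENSMUSG00000032890 for Rims3 (chromosome 4), ENSMUSG00000032589 for Bsn (chromosome 9), ENSMUSG00000061601 for Pclo (chromosome 5), ENSMUSG00000030172 for Erc1 (chromosome 6) and ENSMUSG00000040640 for Erc2 (chromosome 14). All are protein coding. Exons of Bsn share 1813 bases with the lincRNA F630040L22Rik on the other strand, and whether counting used strand is not given in the sources used here, so reads of that stretch cannot be told apart. No other member shares exon bases with an annotated gene.

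Promoters of 9 members were found in RefSeq (GRCm38.p6) as windows of 250 bases before to 50 bases after a start site. There is no entry for Rims2. The 4 windows below belong to the Unc13 family and to Rims3, on which the results from the VTA and between regions mostly turn. CpG dinucleotides are in capitals, and each run is written 5′ to 3′ on the gene's strand.
Unc13a, chr8:71671708-71672007, minus strand: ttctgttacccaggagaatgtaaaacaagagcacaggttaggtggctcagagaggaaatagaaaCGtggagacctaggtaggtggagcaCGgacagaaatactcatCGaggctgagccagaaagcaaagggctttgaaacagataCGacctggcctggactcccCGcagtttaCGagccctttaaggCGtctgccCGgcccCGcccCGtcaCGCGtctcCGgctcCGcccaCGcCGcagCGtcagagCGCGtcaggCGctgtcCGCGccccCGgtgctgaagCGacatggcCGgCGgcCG
Unc13b, chr4:43058703-43059002, plus strand: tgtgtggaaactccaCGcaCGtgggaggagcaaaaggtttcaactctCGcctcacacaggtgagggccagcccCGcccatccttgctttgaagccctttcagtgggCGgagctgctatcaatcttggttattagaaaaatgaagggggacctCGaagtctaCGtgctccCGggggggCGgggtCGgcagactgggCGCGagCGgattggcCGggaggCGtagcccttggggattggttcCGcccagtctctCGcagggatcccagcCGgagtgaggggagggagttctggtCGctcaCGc
Unc13c, chr9:73968988-73969287, minus strand: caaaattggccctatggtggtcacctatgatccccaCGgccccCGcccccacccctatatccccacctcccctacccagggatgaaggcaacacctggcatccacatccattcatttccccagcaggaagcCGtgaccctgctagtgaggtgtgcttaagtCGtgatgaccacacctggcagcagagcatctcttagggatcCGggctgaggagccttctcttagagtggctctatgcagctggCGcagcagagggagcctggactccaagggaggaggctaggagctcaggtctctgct
Rims3, chr4:120854549-120854848, plus strand: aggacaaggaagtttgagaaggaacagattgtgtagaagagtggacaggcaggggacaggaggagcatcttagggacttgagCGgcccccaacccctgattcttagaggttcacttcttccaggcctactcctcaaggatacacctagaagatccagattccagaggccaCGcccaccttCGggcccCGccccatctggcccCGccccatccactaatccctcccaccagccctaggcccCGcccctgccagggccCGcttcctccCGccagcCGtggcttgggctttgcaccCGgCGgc

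The Unc13a window holds 27 CpG, Unc13b 20, Rims3 11 and Unc13c 6, against a median of 7 over 32851 mouse promoter windows. In the other members the count ran from 26 in Rims1 to 46 in Erc1. The NBRE motif bound by Nr4a receptors (AAAGGTCA), the full cyclic AMP response element (TGACGTCA) and a TATA box (TATAAA) were searched on both strands, and none of these motifs contains another. None of the 9 windows holds any of them. Over all windows the shares were 1.51% for the NBRE, 1.79% for the cyclic AMP response element and 13.6% for the TATA box.

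Depth ran from 20971967 to 49700932 reads per library (median 28682156), and no member had fewer than 532 reads in a library. The dissections were checked against marker genes fixed for the cell types of each region. In saline mice at 28 days the summed level of 9 markers of striatal medium spiny neurons was 2390 to 3900 RPKM (reads scaled to gene length and library size) in the NAc. That of 10 dopamine neuron markers was 657 to 2610 in the VTA, against 26.1 to 34.4 in the NAc and 14.2 to 23.8 in the PFC. Of these 10, En1, Foxa1, Foxa2 and Pitx3, which define midbrain dopamine neurons, were below 0.1 in every NAc and PFC library. The summed level of 10 cortical excitatory neuron markers was 549 to 878 in the PFC. The NAc libraries also held between 11.25 and 329.4 RPKM of the cortical markers at 1 day and 12.95 to 237.6 at 28 days. Library 4 of saline PFC at 28 days held 1398 RPKM of the striatal markers, against 101.8 to 136.4 in the other saline libraries of that table. In bulk tissue, fewer cells of a type and less RNA per cell cannot be told apart.

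Levels per length in saline mice placed the members in a different order in each region. In the NAc at 28 days Unc13a was highest, with 41.7 RPKM ± 3.25 (SD, n = 6), followed by Unc13c with 32.3 ± 5.3, Erc2 with 29.6 ± 2.57, Bsn with 25.8 ± 2.06, Rims3 with 24.5 ± 2.74, Rims1 with 17.2 ± 3.52, Rims2 with 14.1 ± 1.1, Pclo with 11.9 ± 1.27, Erc1 with 7.06 ± 0.574 and Unc13b with 4.7 ± 1.22. Neighbours in this order whose means lay closer than the larger SD of the pair were Unc13c and Erc2, Bsn and Rims3, and Rims1 and Rims2. In the VTA Rims3 stood first, with 45.6 ± 11.1 (n = 5), and apart from Unc13c, with 23.3 ± 17.0. Erc2 (18.7 ± 7.95), Unc13a (16.2 ± 2.37), Bsn (14.2 ± 4.34) and Rims1 (13.5 ± 2.82) followed with no gap beyond the spread between neighbours, then Pclo (9.4 ± 2.38), Rims2 (7.73 ± 1.49), Erc1 (5.18 ± 0.958) and Unc13b (4.22 ± 0.975). Pclo and Rims2, and Erc1 and Unc13b, also lay within their spread. In the PFC Unc13a (50.1 ± 2.94), Bsn (49.0 ± 4.0), Rims3 (42.9 ± 7.32) and Rims1 (40.5 ± 4.8) formed the top and did not differ from their neighbours beyond the spread. Erc2 (26.0 ± 1.89), Pclo (15.9 ± 2.21), Rims2 (15.8 ± 0.938), Unc13b (9.21 ± 1.34) and Erc1 (8.63 ± 0.913) came next, and Unc13c was last with 6.44 ± 5.12, within the spread of Erc1, as were Pclo and Rims2 and also Unc13b and Erc1. Levels between genes rest on the lengths behind the authors' RPKM. For Unc13b that length is 6393 bases against 13507 for the merged exons of the mm9 annotation used here, the widest gap among the members.

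**Figure D1:**
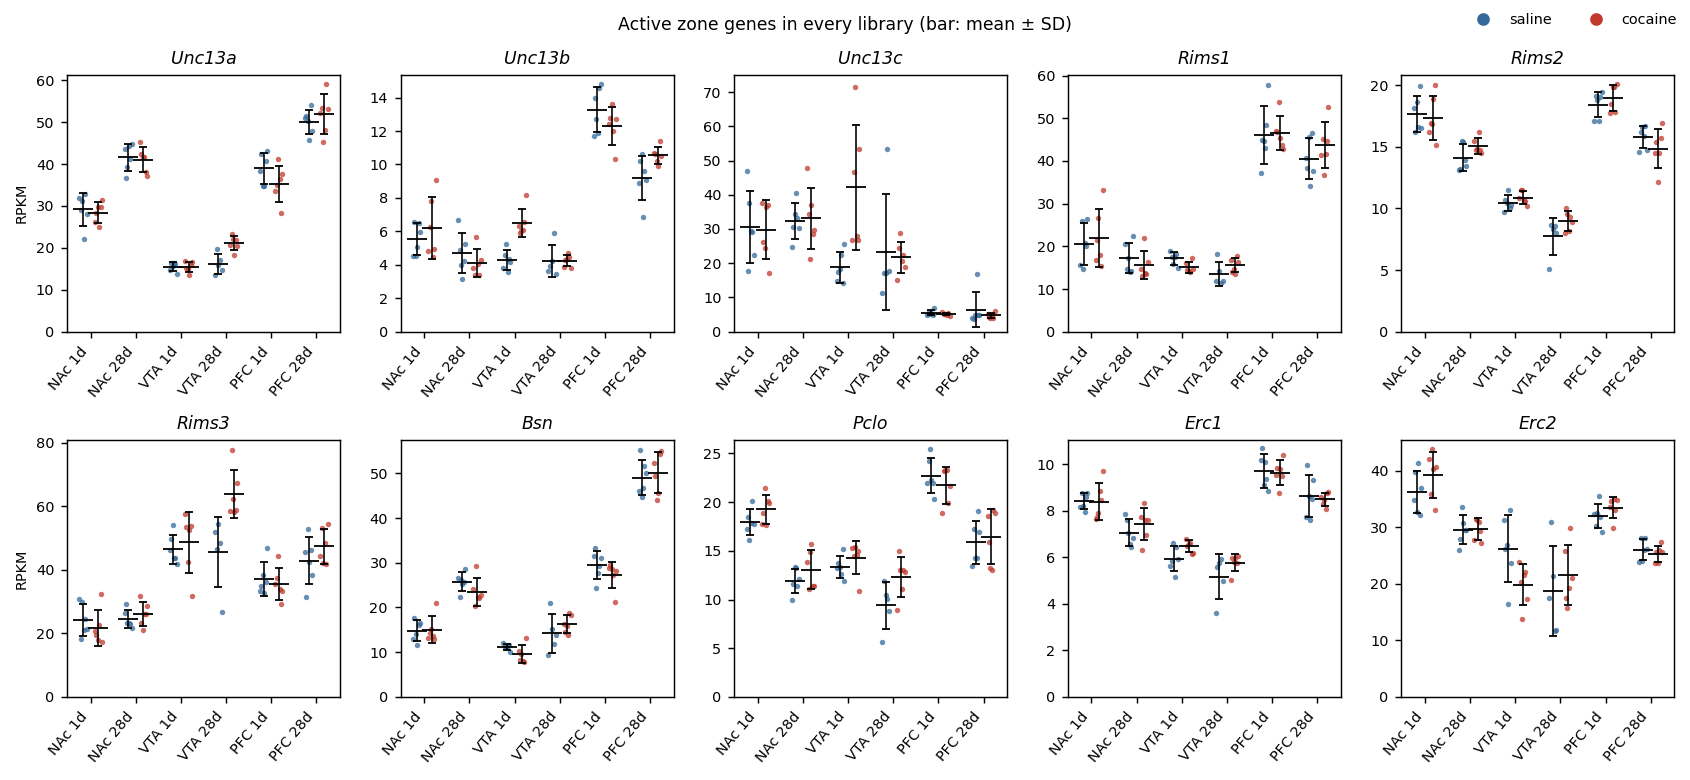
RPKM of each of the 10 members in each library (points), by region and time point, with saline in blue and cocaine in red. Bars are the mean ± SD. The PFC holds the highest points for Unc13b and Rims1, and the lowest for Unc13c apart from 1 saline library at 28 days with 16.8 RPKM.

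Regional differences in saline mice at 28 days were tested in 1 fit over 17181 genes, a contrast that the choice of members did not use. The regions may have been taken from the same mice. The fit treated all libraries as independent, since the columns at 28 days allow no pairing. Against the PFC, 9 of the 10 members differed in the VTA, 8 lower and Unc13c higher, where 57.8% of all genes tested were called (28.1% lower and 29.8% higher, edgeR adjusted p under 0.05). In the NAc 8 of 10 differed from the PFC, 7 lower and Unc13c higher, with 40.7% of all genes called (20.7% lower and 20.0% higher). Between the NAc and the VTA 8 of 10 differed, 7 higher in the NAc and Rims3 lower, with 62.5% of all genes called (29.8% higher and 32.6% lower). The median log2 difference of the members was −1.04 for VTA over PFC, −0.39 for NAc over PFC and 0.57 for NAc over VTA, against 0.02, 0.02 and −0.03 over all genes. Region and table cannot be told apart, since each region at each time point was deposited as a table of its own. Where regions are said below not to overlap, the share of all genes without such overlap was not computed.

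Unc13c, which encodes the Munc13 form best known from the cerebellum, ran against its paralogs. Its level in saline libraries at 28 days was 24.6 to 40.6 RPKM in the NAc (median 31.9), was 11.4, 17.2, 17.0, 53.3 and 17.6 in the VTA, and was 3.58 to 16.8 in the PFC (median 4.79). All NAc libraries lay above all PFC libraries, whereas the VTA overlapped both. The log2 difference was 2.29 (SE 0.403, edgeR adjusted p = 0.000185) between NAc and PFC and 1.70 (SE 0.408, adjusted p = 0.0017) between VTA and PFC. Between NAc and VTA it was 0.59 (SE 0.406, adjusted p = 0.217). The highest PFC value, 16.8, came from the library with 1398 RPKM of striatal markers. Without that library the NAc to PFC difference was 2.87 and the VTA to PFC difference 2.25. The highest VTA value, 53.3, came from saline library 4, and without it the NAc to VTA difference was 1.13 (SE 0.363, edgeR adjusted p = 0.0131) and the VTA to PFC difference 1.16 (SE 0.348, adjusted p = 0.00912).

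Unc13a and Unc13b, which encode the main priming factors of forebrain synapses, were lower in the NAc and VTA than in the PFC. For Unc13a the saline levels at 28 days were 36.7 to 44.9 RPKM in the NAc (median 42.4), 13.6 to 19.8 in the VTA (median 15.9) and 45.8 to 54.2 in the PFC (median 50.7), so that the 3 regions did not overlap. Its log2 difference was −1.77 (SE 0.0947, edgeR adjusted p = 4.51e-11) between VTA and PFC and 1.47 (SE 0.0937, adjusted p = 4.1e-10) between NAc and VTA. Unc13b was at 3.18 to 6.7 RPKM in the NAc, 3.44 to 5.88 in the VTA and 6.85 to 10.6 in the PFC. Its PFC libraries lay above all others, with log2 differences of −1.02 (SE 0.153, adjusted p = 3.75e-05) for the NAc and −1.28 (SE 0.164, adjusted p = 2.88e-06) for the VTA. Between NAc and VTA the difference of Unc13b was 0.26 (SE 0.161, adjusted p = 0.173), and without saline VTA library 4 it was 0.39 (SE 0.154, adjusted p = 0.036).

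The make-up of the Unc13 family differed by region. Of the summed RPKM of the 3 genes in saline mice at 28 days, Unc13c made up 9.64% ± 7.2 in the PFC, 40.9% ± 4.87 in the NAc (SD, n = 6 each) and 49.4% ± 12.0 in the VTA (n = 5). Unc13a made up 76.3% ± 5.24 in the PFC, 53.0% ± 3.29 in the NAc and 40.5% ± 10.5 in the VTA. At 1 day the share of Unc13c was 9.49% ± 0.93, 45.8% ± 8.81 and 48.2% ± 6.61 in the same order.

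The RIM genes split in the same comparison. Rims1 had its highest level in the PFC, at 34.2 to 46.5 RPKM, against 14.0 to 22.4 in the NAc and 11.5 to 18.2 in the VTA, and the PFC libraries overlapped neither. Its log2 difference was −1.28 (SE 0.139, edgeR adjusted p = 1.32e-06) for the NAc and −1.73 (SE 0.15, adjusted p = 2.22e-08) for the VTA. Rims2 was lower in the VTA than in the PFC by a log2 difference of −1.18 (SE 0.116, adjusted p = 1.22e-07), whereas the NAc differed from the PFC by −0.20 (SE 0.108, adjusted p = 0.15), a value that passed the threshold when saline VTA library 1 was left out of the fit (SE 0.0642, adjusted p = 0.016). Rims3 was the 1 member that was higher in the VTA than in the NAc, with a log2 difference of −0.79 (SE 0.148, adjusted p = 0.000171) for NAc over VTA. Between VTA and PFC, Rims3 differed by −0.06 (SE 0.149, adjusted p = 0.743). Rims3 made up 67.5% ± 7.14 of the summed RPKM of Rims1, Rims2 and Rims3 in the VTA (n = 5) against 43.0% ± 3.53 in the PFC and 44.0% ± 4.35 in the NAc (n = 6 each).

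The large scaffolds and the ELKS genes were lowest in the VTA. Bsn was at 9.35, 20.9, 15.1, 11.8 and 13.9 RPKM in the saline VTA libraries at 28 days, 22.4 to 28.7 in the NAc and 44.6 to 55.1 in the PFC, with no overlap between regions. Its log2 differences were −1.93 (SE 0.158, edgeR adjusted p = 1.05e-08) for VTA over PFC and −0.97 (SE 0.144, adjusted p = 3.38e-05) for NAc over PFC. Pclo differed less, by −0.90 (SE 0.157, adjusted p = 9.11e-05) and −0.45 (SE 0.148, adjusted p = 0.0212). The NAc to PFC value of Pclo missed the threshold without saline NAc library 1 (−0.39, adjusted p = 0.0501) and without saline PFC library 5 (−0.37, adjusted p = 0.0618). Erc1 differed by −0.88 (SE 0.109, adjusted p = 1.89e-06) and −0.33 (SE 0.103, adjusted p = 0.0146). Erc2 was lower in the VTA than in the PFC by −0.62 (SE 0.194, adjusted p = 0.0106), and the NAc differed from the PFC by 0.15 (SE 0.183, adjusted p = 0.566). Erc2 made up 75.1% ± 1.67 of the summed RPKM of both ELKS genes in the PFC and 80.6% ± 2.41 in the NAc.

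**Figure D2:**
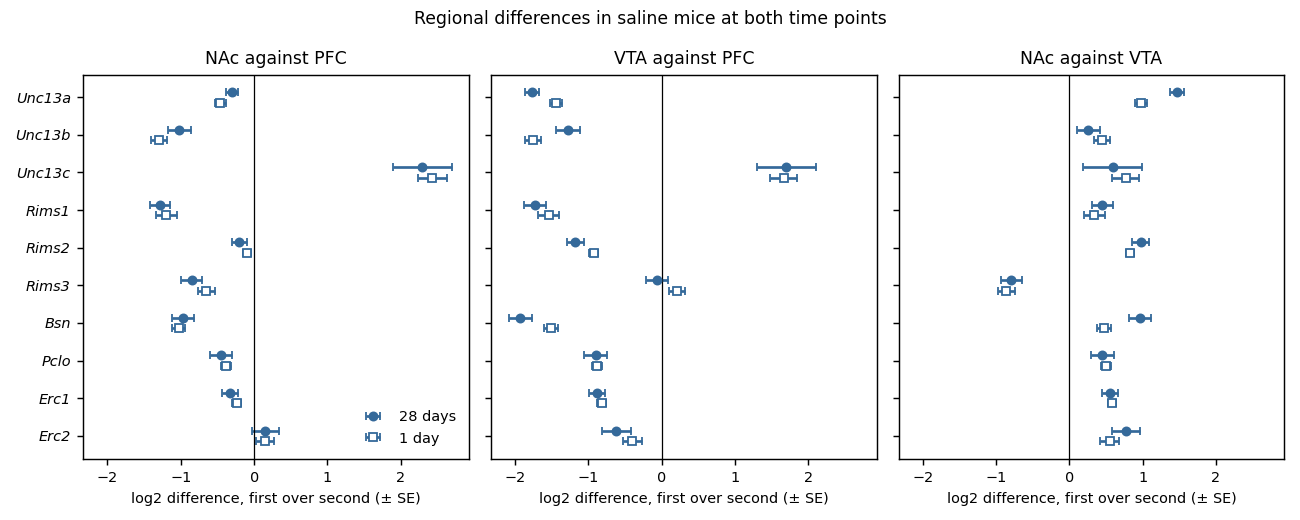
Log2 difference between regions (first region over second, ± SE) for each member in saline libraries, from the fit at 28 days (filled) and from the same fit on the libraries at 1 day (open). Unc13c lies right of 0 and 7 members lie left of it in both comparisons with the PFC at both time points, and Rims3 stands alone left of 0 in the NAc against VTA panel.

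The saline libraries at 1 day gave a repeat on other tables, in which the reads of the VTA and PFC were recovered from RPKM. There 8, 9 and 10 of the 10 members were called for NAc against PFC, VTA against PFC and NAc against VTA, where 40.9%, 64.6% and 66.0% of all genes were, and 10, 9 and 10 had the sign seen at 28 days. The exception was Rims3 between VTA and PFC, at 0.21 (SE 0.112). In the cocaine libraries at 28 days the counts called were 8, 10 and 7, with 53.4%, 64.9% and 68.5% of all genes. Between NAc and VTA, Rims1 (0.07, SE 0.116) and Pclo (0.16, SE 0.126) were not called there, whereas Unc13c was (0.68, SE 0.161, edgeR adjusted p = 0.000884), as it was at 1 day (0.77, SE 0.183, adjusted p = 0.00103).

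Within the NAc, several members varied with the amount of cortical marker RNA in a library, and also with other marker sums. At 1 day Rims1 was at 15.4 to 33.1 RPKM after cocaine and 14.7 to 26.3 after saline, and its highest value came from the library with 329.4 RPKM of cortical markers. Over the 12 libraries at 1 day the log2 level of Rims1 followed the log2 cortical sum with Pearson's r = 0.93 (permutation p = 3e-05, adjusted p = 0.0024) and Spearman's rho = 0.94 (p = 3e-05, adjusted p = 0.0048), and r was 0.97 without the 2 libraries farthest from the median. At 28 days r was 0.90 (permutation p = 5e-05, adjusted p = 0.0024) and rho 0.88 (p = 0.00041, adjusted p = 0.013). Unc13c ran the other way, with r = −0.93 (permutation p = 5e-05, adjusted p = 0.0024) and rho = −0.94 (p = 5e-05, adjusted p = 0.0048) at 1 day, and r = −0.75 (p = 0.0046, adjusted p = 0.039) and rho = −0.78 (p = 0.0044, adjusted p = 0.053) at 28 days. Unc13b had r = 0.82 (permutation p = 0.0015, adjusted p = 0.021) and rho = 0.83 at 1 day, and r = 0.77 (p = 0.0039, adjusted p = 0.039) and rho = 0.76 (p = 0.0053, adjusted p = 0.058) at 28 days. These 3 genes have the widest differences between PFC and NAc, and r had the sign of the difference. Rims3 did not follow that pattern. It is higher in the PFC than in the NAc, but at 1 day it went down with the cortical sum (r = −0.88, permutation p = 0.00017, adjusted p = 0.0058, rho = −0.84, p = 0.0011, adjusted p = 0.028, and r = −0.75 without the 2 farthest), and at 28 days r was −0.29 (p = 0.36, adjusted p = 0.59). After subtracting the treatment means, r was 0.94 and 0.89 for Rims1 and −0.93 and −0.79 for Unc13c. Without that subtraction, r with the striatal markers was −0.87 at 1 day and −0.78 at 28 days for Unc13b. It was −0.81 and −0.68 for Rims1, 0.81 and 0.57 for Unc13c, and −0.53 and −0.90 for Erc1. With the dopamine neuron markers, r of Rims1 was 0.85 and 0.63. At 1 day all of these but that of Erc1 passed the threshold, and at 28 days only those of Unc13b and Erc1. Which of the sums a member followed was not tested. In all, 240 such relations were computed, for 10 members, 4 marker lists and 6 tables, and p-values were adjusted over them.

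In the VTA, Erc2 followed the dopamine neuron markers. At 1 day r was 0.94 over 12 libraries (permutation p = 1e-05, the smallest that the resamples can give, adjusted p = 0.0024) and rho was 0.92 (p = 6e-05, adjusted p = 0.0048). At 28 days r was 0.94 over 11 libraries (permutation p = 3e-05, adjusted p = 0.0024) and rho was 0.93 (p = 0.00014, adjusted p = 0.0084). Without the 2 farthest libraries r was 0.87 and 0.89. Because levels and marker sums also differed by treatment there, r was computed again after subtracting the treatment means, with libraries permuted within each treatment, and it was 0.92 (permutation p = 0.00059, adjusted p = 0.018) and 0.95 (p = 0.00012, adjusted p = 0.0058).

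Unc13c gave a less even picture in the VTA. Computed in that way within treatments, its r at 1 day was 0.87 with the cortical markers (permutation p = 0.00084, adjusted p = 0.022), 0.76 with the cerebellar granule neuron markers (p = 0.015, adjusted p = 0.098) and −0.67 with the dopamine markers (p = 0.013, adjusted p = 0.096). Only the first passed the threshold. At 28 days the same values were 0.79 (permutation p = 0.055, adjusted p = 0.21), 0.85 (p = 0.0028, adjusted p = 0.045) and −0.64 (p = 0.043, adjusted p = 0.18). The cortical value at 28 days rests on few libraries, since over all 11 r was 0.52 and turned to −0.29 without the 2 farthest. For the cerebellar markers r over all 11 was 0.72 (permutation p = 0.019, adjusted p = 0.097) and 0.50 without the 2 farthest. Their rho was 0.51 (p = 0.11, adjusted p = 0.35). Rims1 had an r within treatments of −0.75 with the cerebellar markers at 1 day (permutation p = 0.0062, adjusted p = 0.057) and −0.62 at 28 days (p = 0.088, adjusted p = 0.27), and of 0.83 with the dopamine markers at 28 days (p = 0.0037, adjusted p = 0.046).

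Cocaine was compared with saline in each region and time point. The members were selected on function with these comparisons known, so the values and calls that follow are a description, with no p-value for any member. Of the 10 members, all were tested in each of the 6 tables, and 1 passed the threshold in 1 table. That was Unc13b in the VTA at 1 day, where 0.186% of all genes tested were called (limma, adjusted p under 0.05). No member was called elsewhere. The shares of all genes called were 0.0126% in the NAc at 1 day, 0.00693% in the PFC at 1 day and 0% in the NAc, VTA and PFC at 28 days. Groups that did not overlap in either direction made up 0.214% and 0.301% of the genes tested in the NAc at 1 and 28 days, against 1.67% and 1.33% for the VTA. For the PFC they made up 0.159% and 0.233%. In what follows, cocaine libraries are at times counted against the saline mean, or some of them against all saline libraries. The share of all genes with such counts was not computed.

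In the VTA at 1 day, both Unc13b and Unc13c lay higher in every cocaine library than in every saline library. Unc13b was at 6.34, 5.93, 6.03, 6.08, 6.56 and 8.15 RPKM after cocaine and 3.79, 4.59, 5.22, 3.55, 4.37 and 4.15 after saline. Its means were 6.52 ± 0.831 and 4.28 ± 0.597 (SD, n = 6 each), a log2 fold change of 0.60 (SE 0.103). Unc13c was at 26.7, 46.5, 71.6, 28.0, 26.9 and 53.3 RPKM after cocaine and 14.8, 17.4, 18.3, 22.5, 14.2 and 25.6 after saline, a log2 fold change of 1.08 (SE 0.259). The cocaine libraries of Unc13c spread over a wider range than the saline ones, and libraries 3 and 6 stood highest. Its log2 fold change was 0.91 without library 3 and 1.00 without library 6. Of all genes tested in this table, 1.3% had cocaine libraries that all lay above the saline libraries. Unc13a, the third paralog, was at 13.5 to 16.8 RPKM after cocaine (median 15.5) and 13.7 to 16.5 after saline (median 15.9), with a log2 fold change of −0.00 (SE 0.0687). The share of Unc13c in the family was 63.6% ± 9.45 after cocaine and 48.2% ± 6.61 after saline.

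Other members of the VTA at 1 day leaned the other way or stayed close to saline. Erc2 was at 13.8 to 23.9 RPKM after cocaine (median 20.9) and 16.5 to 33.1 after saline (median 26.4), a log2 fold change of −0.39 (SE 0.174), and no cocaine library reached the saline mean. Bsn was at 7.87 to 13.1 against 10.0 to 12.0 (−0.25, SE 0.115) and Rims1 at 14.1 to 17.2 against 15.0 to 18.8 (−0.18, SE 0.0735), both with overlapping groups. Erc1 had a log2 fold change of 0.13 (SE 0.0644), and each of the 6 cocaine values exceeded the saline mean of 5.95 RPKM. Pclo, Rims2 and Rims3 lay between 0.04 and 0.09. The median over the 10 members was 0.05, against 0.03 over all genes tested.

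The summed markers of other cells were not level between the treatments in this table, though of all those named here only 1 microglia gene was called and all sums overlapped. All 10 dopamine neuron markers had a lower mean after cocaine, with sums of 655 to 1550 RPKM (median 1200) against 1090 to 2490 after saline (median 1950). Of the cortical markers, 9 of 10 were higher, with sums of 44.3 to 123 against 33.3 to 77.6, and all 6 cerebellar granule neuron markers were higher, with sums of 2.12 to 21.1 against 1.39 to 5.01. All 8 microglia markers were lower, with sums of 95.2 to 166 against 144 to 225. The 3 GABA neuron markers (113 to 324 against 210 to 425) and the 6 oligodendrocyte markers (2920 to 4500 against 3490 to 5990) were also lower, and the 5 endothelium (55.5 to 99.8 against 55.3 to 73.2) and 4 choroid plexus markers (2.33 to 150 against 1.67 to 60.5) higher. The 1 marker of subcortical glutamate neurons was higher too (28.8 to 60.1 against 18.1 to 46.5). With the mean log2 level of the dopamine markers as a covariate, the log2 fold changes were 0.70 for Unc13b, 0.64 for Unc13c and −0.00 for Erc2. With that of the cortical markers they were 0.50, 0.57 and −0.26. Neither fit called a member or any other gene. The call of Unc13b was also lost with the replicate number as a block and with no filter on low values (0.60 in both), and it depended on single libraries. It was kept without cocaine library 6 or saline library 3, and lost when any 1 of the other 10 libraries was left out, while the log2 fold change stayed between 0.53 and 0.66.

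**Figure D3:**
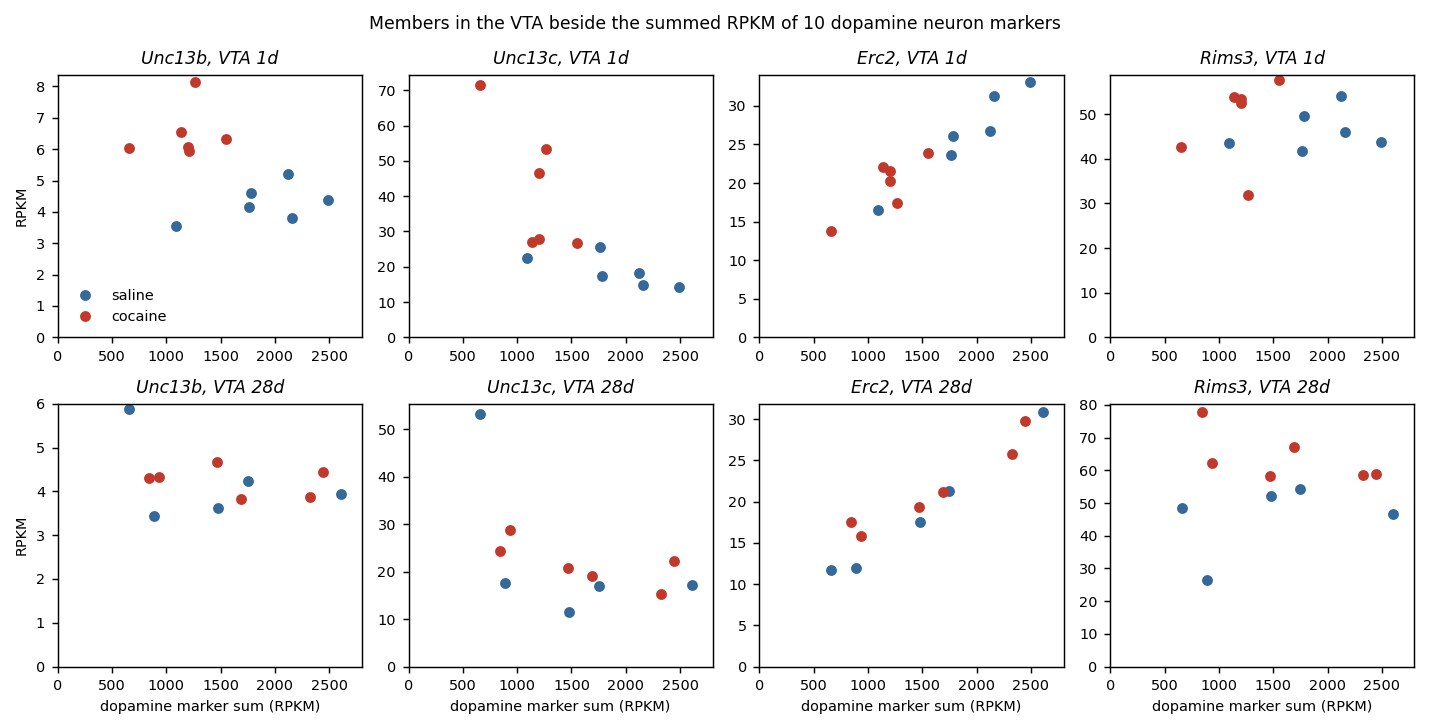
RPKM of Unc13b, Unc13c, Erc2 and Rims3 (vertical axis) against the summed RPKM of 10 dopamine neuron markers (horizontal axis) in each VTA library of the early (top) and the late time point (bottom), with saline in blue and cocaine in red. Erc2 rises with the marker sum in both rows, whereas at 1 day the cocaine points of Unc13b, all at or above 5.93 RPKM, lie above all saline points.

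In the VTA at 28 days most estimates lay above 0, with Unc13b and Unc13c as exceptions. The median log2 fold change over the 10 members was 0.20, against −0.03 over all genes tested, and 9 estimates were above 0, that of Unc13b only just. Leaving out single libraries moved that median between 0.13 (without saline library 1) and 0.36 (without saline library 2). Saline library 1 was the lowest of its group for Unc13a, Rims2, Bsn, Pclo and Erc1. Rims3 was at 58.6, 77.8, 62.3, 58.2, 58.8 and 67.2 RPKM after cocaine and 52.0, 46.5, 54.4, 48.4 and 26.6 after saline, a log2 fold change of 0.48 (SE 0.157). Every cocaine value lay above every saline value, which held for 0.98% of all genes tested in this table. Without saline library 5, the lowest of Rims3 and the highest in microglia markers (320 RPKM), the log2 fold change of Rims3 was 0.34. Unc13a was at 20.6, 23.3, 22.2, 18.3, 22.0 and 20.4 RPKM after cocaine and 13.6, 19.8, 15.9, 17.1 and 14.8 after saline (0.37, SE 0.0968), and 5 of 6 cocaine libraries lay above all saline libraries. Pclo was at 8.89 to 15.0 RPKM after cocaine (median 12.9) and 5.63, 11.9, 10.5, 10.1 and 8.85 after saline (0.38, SE 0.174). Rims2 was at 8.01 to 10.0 against 5.09, 8.63, 8.34, 8.56 and 8.03 (0.21, SE 0.124), and 4 of 6 cocaine libraries lay above all saline libraries. Erc2 (0.20, SE 0.259), Bsn (0.19, SE 0.176), Rims1 (0.19, SE 0.131) and Erc1 (0.15, SE 0.111) had wider overlaps. With single libraries left out, the estimates ran from 0.10 to 0.27 for Rims2, 0.08 to 0.39 for Bsn, 0.05 to 0.20 for Erc1, 0.25 to 0.50 for Pclo, 0.14 to 0.34 for Rims1 and 0.07 to 0.47 for Erc2. The lowest values of Rims2, Bsn, Erc1 and Pclo were those without saline library 1.

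Unc13b and Unc13c, whose groups lay apart at 1 day, had overlapping groups at 28 days. Unc13b was at 3.83 to 4.68 RPKM after cocaine and 3.62, 3.94, 4.23, 5.88 and 3.44 after saline (0.00, SE 0.119). Unc13c was at 15.2 to 28.7 after cocaine and 11.4, 17.2, 17.0, 53.3 and 17.6 after saline (−0.10, SE 0.331). Saline library 4, the highest of both genes, also had the lowest dopamine marker sum of the table (657 RPKM) and the highest cortical (124) and cerebellar (17.4) sums. Without it the log2 fold changes were 0.15 for Unc13b and 0.45 for Unc13c. The dopamine marker sums of this table were 845 to 2450 RPKM after cocaine and 657 to 2610 after saline, and 9 of the 10 had a higher mean after cocaine. The 1 marker of subcortical glutamate neurons was at 43.2 to 91.8 RPKM after cocaine (median 61.8) and 24.0 to 66.9 after saline (median 29.6). All 8 microglia (109 to 185 against 166 to 320), all 6 oligodendrocyte (2540 to 4550 against 3660 to 7090) and all 5 endothelium markers (65.0 to 98.3 against 71.2 to 164) had a lower mean, with overlapping sums and none called. With the dopamine markers as a covariate Rims3 was at 0.47 and Unc13a at 0.36, and with the cortical markers at 0.38 and 0.42. Unc13c was at 0.14 with the dopamine and 0.97 with the cortical covariate, and Erc2 at 0.10 and −0.38. The part of these cells in the other results was not tested. Whether the fold changes at 1 and 28 days differ was not tested either.

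**Figure D4:**
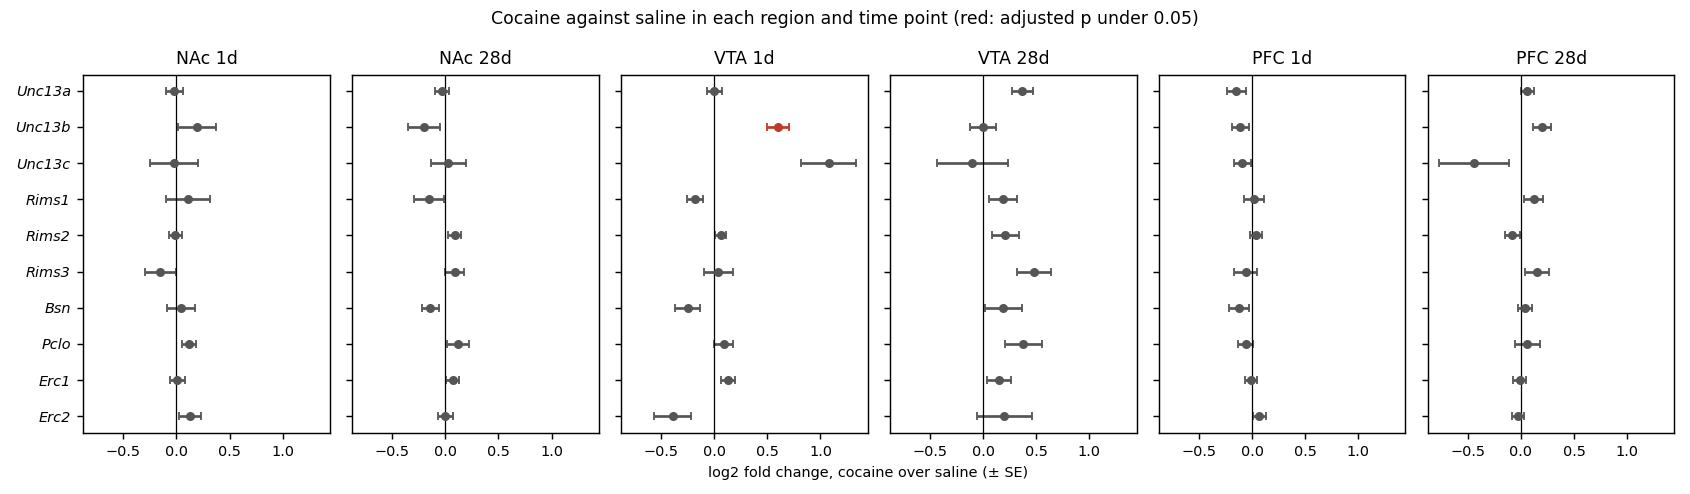
Log2 fold change of cocaine over saline (± SE) for each member in each region and time point, with the 1 called value (Unc13b, VTA at 1 day) in red. Values lie near 0 in the NAc and PFC, except Unc13c in the PFC at 28 days, at −0.44. They reach 1.08 in the VTA at 1 day for Unc13c. In the VTA at 28 days they lie right of 0 for 8 members, with Unc13b at 0.00 and Unc13c at −0.10.

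In the NAc the fold changes of the members were small at both time points, as they were for most genes. The log2 fold changes ran from −0.15 (Rims3, SE 0.146) to 0.19 (Unc13b, SE 0.179) at 1 day and from −0.20 (Unc13b, SE 0.154) to 0.12 (Pclo, SE 0.104) at 28 days, with medians of 0.03 and 0.01 against −0.00 and 0.00 over all genes. Every member had overlapping groups. Unc13b, for example, was at 4.46 to 9.07 RPKM after cocaine (median 5.6) and 4.51 to 6.58 after saline (median 5.54) at 1 day. Rims2 at 28 days was at 14.5 to 16.2 RPKM after cocaine and 13.1 to 15.5 after saline, and each of the 6 cocaine values exceeded the saline mean of 14.1.

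The PFC likewise gave overlapping groups, with small differences except for Unc13c at 28 days. At 1 day the log2 fold changes ran from −0.15 (Unc13a, SE 0.0903) to 0.07 (Erc2, SE 0.059), and 7 of 10 were below 0. Bsn was at 21.3 to 29.4 RPKM after cocaine and 24.3 to 33.2 after saline (−0.12, SE 0.0927), with no cocaine library above the saline mean of 29.5. At 28 days Unc13b was at 9.9 to 11.4 RPKM after cocaine (median 10.6) and 6.85 to 10.6 after saline (median 9.33), a log2 fold change of 0.20 (SE 0.082). The lowest saline value, 6.85, came from library 4, which held the striatal markers, and without it the log2 fold change was 0.13. Unc13c had the estimate farthest from 0 at −0.44 (SE 0.329). Its saline libraries were at 3.58 to 16.8 RPKM, the highest again from library 4, and without that library the estimate turned to 0.14 (SE 0.11).

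The other genes of the release pathway were tested in the same fits. They were 18 further active zone scaffolds and partners, 10 calcium channel subunits, 20 genes of the fusion machinery and 16 vesicle proteins, 64 in all. These lists were chosen with earlier results of these data known, so the counts and p-values that follow are a description. None was called in any of the 6 comparisons (limma for the VTA and PFC at 1 day, edgeR elsewhere), nor by edgeR on the reads recovered from RPKM or DESeq2 in the same tables. At an unadjusted p under 0.05 there were 12 of 62 tested in the VTA at 1 day (8 higher, 4 lower), or 19.4% against 15.4% of all genes tested. In the VTA at 28 days there were 14 of 64 (13 higher, 1 lower), or 21.9% against 11.5%. The same split by direction was not computed over all genes. Elsewhere the counts were 2 of 64 and 4 of 64 in the NAc at 1 and 28 days and 0 of 63 and 3 of 64 in the PFC, against 4.01%, 6.76%, 4.15% and 5.66% of all genes. The median log2 fold change of the 64 genes was 0.13 in the VTA at 28 days, against −0.03 for all genes, and that of the calcium channel subunits alone was 0.26. At 1 day in the VTA it was −0.02 against 0.03. The gene nearest to a call, named after its values were seen, was Cplx1 in the VTA at 1 day. It encodes a complexin, which binds the assembled SNARE complex, and its log2 fold change was −0.53 (SE 0.111, limma adjusted p = 0.0922).

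Between regions most partner genes differed. In saline mice at 28 days 57 of 64 differed between VTA and PFC, 44 lower and 13 higher in the VTA, where 57.8% of all genes were called. Between NAc and PFC 51 differed, 38 lower and 13 higher in the NAc, against 40.7% of all genes. Between NAc and VTA 50 differed, 31 higher and 19 lower in the NAc, against 62.5%. The lists differed in the last comparison. Of the calcium channel subunits 9 of 10 were higher in the NAc and none lower, with a median log2 difference of 0.98, against −0.03 over all genes. The scaffold partners had 9 higher and 5 lower (median 0.24), the fusion machinery 8 and 8 (median −0.13) and the vesicle proteins 5 and 6 (median −0.05). These differences between lists were not tested.

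The same genes were set side by side at 1 and 28 days in saline mice, without a test, since time point and table cannot be told apart. Bsn had a higher mean at 28 days in all 3 regions, with 25.8 against 14.8 RPKM in the NAc, 49.0 against 29.5 in the PFC and 14.2 against 11.2 in the VTA. In the NAc and PFC its libraries at the 2 time points did not overlap. Unc13a was at 41.7 against 29.2 in the NAc and 50.1 against 39.0 in the PFC, again without overlap, and at 16.2 against 15.5 in the VTA. Pclo went the other way, with 11.9 against 17.9 in the NAc, 15.9 against 22.7 in the PFC and 9.4 against 13.3 in the VTA. Its libraries did not overlap in the NAc and PFC, nor did those of Erc1 in the NAc or of Unc13b and Erc2 in the PFC. The share of all genes without such overlap between the time points was not computed. Rims2 was lower at 28 days without overlap in all 3 regions, at log2 ratios of −0.33 in the NAc, −0.43 in the VTA and −0.22 in the PFC.

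These ratios were set against base composition. Bsn (59.8%) and Unc13a (56.4%) have the highest GC content in their exons among the members, and Unc13b (45.1%) and Pclo (45.4%) the lowest. The ratio of Unc13b was −0.23 in the NAc, −0.02 in the VTA and −0.53 in the PFC, and that of Unc13c (46.9%) was above 0 in each. For Unc13c the means at 28 days in the VTA and PFC each included a library that stood apart (53.3 and 16.8 RPKM). Its medians were lower at 28 days there, at 17.2 against 17.8 in the VTA and 4.79 against 5.29 in the PFC. Across all genes with a saline mean of at least 1 CPM at both time points, Spearman's rho between the log2 ratio of 28 days to 1 day and exon GC content was 0.80 in the NAc (14002 genes), 0.70 in the VTA (14310) and 0.81 in the PFC (13893). Genes are not independent replicates, so no p-value is given. For the regional differences at 28 days the same rho lay between −0.0627 and −0.0152. For cocaine over saline it was 0.0295 in the VTA at 1 day and −0.0999 at 28 days, −0.336 and −0.162 in the NAc, and −0.44 and −0.283 in the PFC. The part of base composition in the members' values was not tested.

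**Figure D5:**
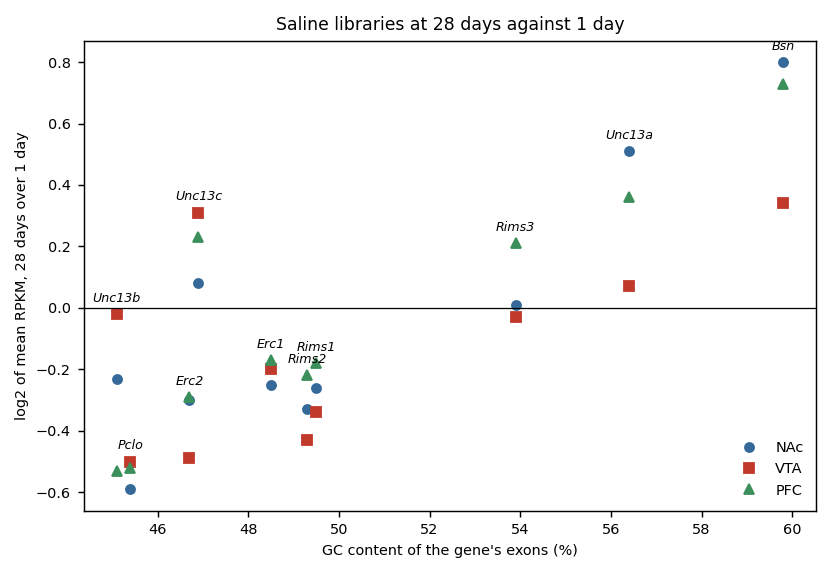
Log2 ratio of the mean RPKM of saline libraries at 28 days to those at 1 day (vertical axis) against the GC content of each member's exons (horizontal axis), in the NAc (circles), VTA (squares) and PFC (triangles). Bsn, at 59.8% GC, lies highest with ratios of 0.80 in the NAc and 0.73 in the PFC, and Pclo, at 45.4%, lies between −0.50 and −0.59.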

How the data were processed

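RNA-seq of the NAc, VTA and PFC was analysed from 1 deposited table per region and time point. Per the labels and the study's methods, the authors aligned reads to mm9 (Ensembl annotation) with STAR 2.4.1d. The counting tool and the use of strand are not given in the sources used here. For 4 tables the authors deposited raw counts per gene. The other 2 tables (VTA and PFC, 1 day) hold RPKM computed by the authors, from which reads were recovered as whole multiples of 1 read for all 23806 and 23353 genes with reads (tolerance 0.001 reads), by steps tested on simulated data. The tables also hold the authors' log2 fold changes and p-values, which were not used, and 30 columns of values that belong to no sample analysed here and were left out.

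Counts were tested with edgeR 4.0.16 (TMM, filterByExpr with a minimum count of 10 and total of 15, glmQLFTest) in R 4.3.3, and log2(RPKM + 0.1) with limma 3.58.1, keeping genes whose mean RPKM reached 0.5. A pseudocount understates the change of low genes. The SE given with an edgeR value was derived as the absolute log2 value divided by the square root of the test's F statistic. For limma it is the moderated standard error. p-values were adjusted by Benjamini-Hochberg over all genes, and an adjusted p under 0.05 was called. Regions were compared in 1 edgeR fit of the saline libraries at 28 days. Levels of all tables are given as RPKM on the lengths behind the authors' RPKM, which met the deposited values to within a relative gap of 0.00022. The number of libraries and their depth (20971967 to 49700932 reads) limit the precision. Correlations used 100000 permutations, two-sided, over all libraries of a table and, added after seeing the data, within each treatment. The 28-day columns give a group but no sample, so their library numbers only name columns.

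The 10 members, the partner and marker lists and the tests were chosen with earlier results of these data known. Named were all members, partner genes called in a cocaine comparison, and for each member the 2 genes most like it (those of Erc1 are not reported here). Alternatives were DESeq2 1.42.0 and its size factors, no filter, a pseudocount of 1, edgeR on recovered reads, the replicate number as a block, marker covariates (that of dopamine neurons added after seeing the data), the other libraries for the regions, and leaving out each library. Figures used matplotlib 3.10.9, tables Python 3.11.15, numpy 2.4.6, pandas 2.3.3 and scipy 1.17.1.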

Additional observations from a re-analysis of the deposited data

Results flagged for a closer look

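Of the 120 groups of libraries (10 members in 12 groups), 11 held a library that stood apart from the rest of its group by Dixon's 95% criterion, where chance gives about 1 in 20. In the VTA at 28 days these were Unc13c in saline library 4 at 53.3 RPKM, Rims3 in saline library 5 at 26.6, Rims2 in saline library 1 at 5.09 and Erc1 in cocaine library 1 at 5.05. In the VTA at 1 day they were Unc13b at 8.15 and Pclo at 10.9, both in cocaine library 6, which also held the highest choroid plexus marker sum of that table (149.5 RPKM). In the PFC they were Unc13c in saline library 4 at 28 days, at 16.8, and Bsn in cocaine library 5 at 1 day, at 21.3. In the NAc they were Bsn in cocaine library 6 at 20.9 and Rims3 in cocaine library 5 at 32.5, both at 1 day, and Rims1 in cocaine library 3 at 28 days, at 22.0. Those 3 NAc libraries held the highest (329.4 RPKM), the lowest (12.39) and the highest (237.6) cortical marker sums of the cocaine libraries in their tables. What part such tissue had in these values was not tested.

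Unc13c had values of opposite sign in a pair of tables, neither of them called. Each of the 6 cocaine values exceeded the saline mean in the VTA at 1 day (log2 fold change 1.08), and all 6 lay below it in the PFC at 28 days (log2 fold change −0.44). The difference was not tested, and the PFC value turned to 0.14 without saline library 4.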

How the results depend on the processing

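The single call among the members, Unc13b in the VTA at 1 day, was kept with a pseudocount of 1 and with edgeR on recovered reads. The number of members called there was 0 with no filter on low values, with the replicate number as a block, with the cortical marker covariate and with the dopamine marker covariate, and 0 to 1 when single libraries were left out. The cause was not tested. The number of partner genes called there was 0 to 1 when single libraries were left out, the 1 being Cplx1 without cocaine library 6. Rims3 between VTA and PFC, at −0.06 and not called, ran from −0.13 (without saline PFC library 2) to 0.09 (without saline VTA library 5) when single libraries were left out, with 0.01 without saline PFC library 3, and was 0.30 in the cocaine libraries at 28 days, 0.21 in the saline libraries at 1 day and 0.22 there with the replicate block. Members called between regions numbered 7 to 9 (NAc against PFC), 9 (VTA against PFC) and 8 to 10 (NAc against VTA) when single libraries were left out. In all other comparisons of cocaine with saline no member or partner gene was called under any alternative run. The replicate numbers of the 1-day tables pair no mice by label, and same-numbered libraries correlated between −0.47 and 0.60, so the block is given only as an alternative, and with it no other call of a member against saline changed. Between NAc and VTA at 1 day the call of Rims1 was lost with it (0.30). In the 28-day tables no paired analysis was possible because the columns carry no replicate number of a sample. Over all genes, calls of cocaine against saline numbered 2 in the NAc at 1 day and 0 in the NAc, VTA and PFC at 28 days by edgeR, and 21, 20, 83 and 2 by DESeq2, with no member or partner gene among them. In the VTA at 1 day they numbered 28 by limma, 55 by edgeR on recovered reads, 2 with no filter, 13 with the block and 0 with either covariate. The lowest number of reads of a member in a library was 532.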

Other observations

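The genes that followed 9 of the members most closely across libraries were sought over 13816 genes tested in all tables. The measure was Pearson's r of log2 depth-scaled counts over 71 libraries after the mean of each group was subtracted, given as a description since the genes were picked for it and libraries share depth and tissue content. Pclo was followed by Herc1 (r = 0.924) and Vps13c (0.914), Erc2 by Fgf13 (0.911) and Rab3c (0.856), and Unc13a by Cacna1a (0.86), which encodes a presynaptic calcium channel subunit, and Celsr3 (0.699). Unc13b was followed by Sidt1 (0.831) and Olfm1 (0.772), Unc13c by Spnb1 (0.745) and Gcnt2 (0.738), Rims1 by Strbp (0.828) and Ppm1l (0.814), Rims2 by Chd8 (0.803) and Syne1 (0.798), and Rims3 by Cbln4 (0.774) and Pde11a (0.708). Bsn was followed by Kif1a (0.774), a kinesin that carries synaptic vesicle precursors, and Rab6b (0.727). Several have long transcripts. The merged exons of Herc1 span 27464 bases, those of Vps13c 11616 and those of Syne1 31152, against a median of 3608 over the genes tested in all tables. Exon GC content lay close to that of the member for some, such as Cacna1a (56.6%, Unc13a 56.4%) and Vps13c (46.1%, Pclo 45.4%). For others it did not, such as Olfm1 (56.5%, Unc13b 45.1%). The part of length and base composition in these relations was not tested.

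The members did not vary as 1 block. Of their 45 pairs, 32 had an r above 0 and 13 below, from 0.675 for Rims2 and Pclo to −0.454 for Unc13c and Rims1.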
